A study of Drosophila melanogaster with 6 samples.

Results

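HP2 (Su(var)2-HP2) is a large chromosomal protein of Drosophila that binds HP1a, and the regions described here are its enriched regions on 3LHet, the assembled pericentric scaffold of the left arm of chromosome 3. Members were all regions that the deposited lists place on 3LHet in the coordinates of FlyBase release 5, where this scaffold runs from 1 to 2555491. There were 251 such regions among the 5179 of the combined list, a further list of the authors whose name points to the whole replicate set. The lists of the single immunoprecipitation libraries held 269 (replicate 1), 247 (replicate 2) and 272 (replicate 3) such regions, of 2488, 3132 and 3190 in all.

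The data are chromatin immunoprecipitation with sequencing (ChIP-seq) of HP2 with the antibody Ab2-90, in 3 immunoprecipitation libraries set against 3 input libraries. Both groups came from whole embryos aged 14 to 16 h of the strain Oregon-R (Oregon-R-modENCODE), genotype wild type, fixed with 1.8% formaldehyde, and no other strain, stage or treatment was studied. Each replicate list was called by the authors against the input of the same replicate, and values of the input libraries were not analysed here. Whole embryos mix many tissues. Separate embryo collections are not stated for the replicates, and their spread may therefore be technical.

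Pericentric heterochromatin is the compact, repeat-rich chromatin that flanks centromeres. Its nucleosomes carry methylated histone H3 lysine 9, which HP1a binds through its chromodomain, and HP1a in turn recruits partners such as HP2. Loss of HP2 function suppresses position-effect variegation, the patchy silencing of a gene placed next to heterochromatin. In release 5 the Het scaffolds hold pericentric sequence that was mapped to an arm but kept apart from the arm sequence. Sequencing depth is unknown, because read totals are not part of the sources used, and single regions therefore carry no counting interval.

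Replicate 1 stood apart from the other 2 libraries before any comparison was made. Its 269 regions on 3LHet covered 0.802 Mb, against 1.68 Mb for the 247 regions of replicate 2 and 1.54 Mb for the 272 regions of replicate 3. The number of regions therefore differed little, at 263 ± 13.7 (SD, n = 3), while the bases inside them differed by more. Values are given below for each replicate, and means also without replicate 1.

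Replicate 1 regions covered 31.4% of the bases of 3LHet, replicate 2 regions 65.6% and replicate 3 regions 60.1%. The mean was 52.4% ± 18.4 (SD, n = 3), and 62.8% without replicate 1. The combined list covered 72.9%. All sequence outside 3LHet was covered over 4.37%, 8.28% and 7.57% in replicates 1, 2 and 3 (the unplaced set Uextra, which held no region, left out of its length). 3LHet was thus covered 7.18, 7.93 and 7.94 times as densely as the rest, a mean of 7.68 ± 0.44 (SD, n = 3). All 3 replicates lay on the same side, and p was 0.25 in an exact sign-flip permutation test over replicates (two-sided), the smallest value that 3 replicates allow. The scaffold makes up 1.83% of the sequence considered and held 11.8%, 12.9% and 12.9% of all bases in HP2 regions in replicates 1, 2 and 3.

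The other mapped heterochromatin scaffolds were the most alike sequence. Coverage of 3LHet exceeded that of 2RHet by 6.36, 13.8 and 15.5 percentage points in replicates 1, 2 and 3. It exceeded 3RHet, the scaffold of the opposite arm of the same chromosome, by 12.6, 20.1 and 22.8 points, and the short 2LHet by 7.53, 19.5 and 19.6 points. XHet, at 0.204 Mb the shortest of these scaffolds, held only 1, 7 and 5 regions in replicates 1, 2 and 3. It was covered least, and the difference there was 30.2, 60.1 and 56.4 points. In each of the 4 comparisons 3LHet was higher in 3 of 3 replicates (exact sign-flip permutation test, two-sided, p = 0.25 each and 0.25 after Benjamini-Hochberg adjustment over the 4 scaffolds, the smallest possible). None can pass 0.05 with this design.

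A further pair of sequences had coverage near that of 3LHet. Chromosome 4, the small and largely heterochromatic chromosome, was covered over 36.9%, 65.5% and 60.1% in the 3 replicates. The difference of 3LHet minus chromosome 4 was -5.46 points in replicate 1, 0.11 points in replicate 2 and -0.00037 points in replicate 3, with a mean of -1.78 ± 3.18 (SD, n = 3; exact sign-flip permutation test, two-sided, p = 0.75). Without replicate 1 the mean difference was 0.056 points. The last 2 Mb of arm 3L, the arm sequence nearest to this scaffold, was covered over 34.7%, 61.1% and 57.3%. There the difference was -3.29, 4.51 and 2.74 points, a mean of 1.32 ± 4.09 (SD, n = 3; exact sign-flip permutation test, two-sided, p = 0.75), and -0.28 without replicate 2. These 2 comparisons were added after the data had been seen, and a p that misses the threshold does not show that the sequences are covered alike.

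**Figure D1:**
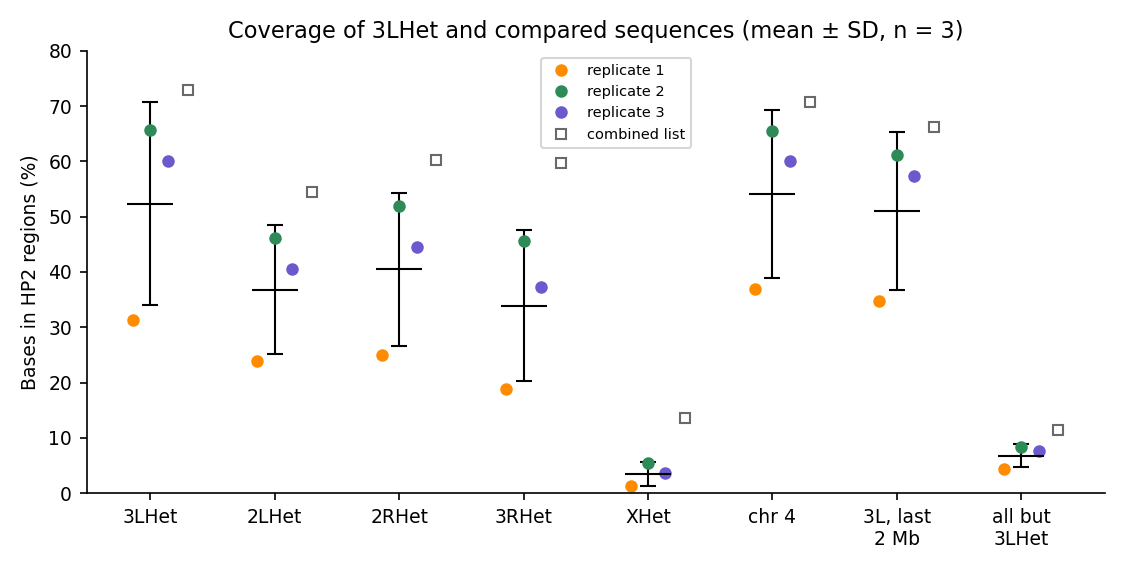
Percent of bases in HP2 regions (vertical axis) on 3LHet and on the sequences it was compared with; coloured points are replicates, black bars mean ± SD (n = 3) and open squares the combined list. 3LHet lies above the other Het scaffolds in each replicate, beside chromosome 4 and the last 2 Mb of 3L, and far above the rest of the genome.

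Along the scaffold, coverage was described in 26 bins of 100 kb, the last being shorter. Coverage in a bin ranged from 5.28% to 62.9% in replicate 1, from 23.6% to 93.6% in replicate 2 and from 24.8% to 91.2% in replicate 3, with medians of 29.9%, 69.8% and 64.4%. The densest bin in all 3 lists was bin 5, from 400001 to 500000, with 62.9%, 93.6% and 91.2%. Replicate 1 was the lowest of the 3 in each of the 26 bins, and in the combined list 24 of 26 bins were covered over more than 50%.

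The 2 bins at the start of the scaffold were the sparsest part in replicates 2 and 3. Bin 1 was covered over 24.6%, 37.9% and 32.7% in replicates 1, 2 and 3, and bin 2 (100001 to 200000) over 13.8%, 23.6% and 24.8%. Even so, a combined region ran from 10 to 24152 with a score of 1.35, and replicate 1 covered 69.4% of it. The first regions of replicates 2 and 3 started at 9 and 10, and that of replicate 1 at 2008. At the other end the last combined region stopped 2805 bp before the end of the scaffold.

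Strength followed another pattern along the scaffold. The authors' score of each region, whose scale and zero are not stated, was averaged in each bin with region length as the weight and is compared within a list. In replicate 2 the highest means were 1.59 in bin 6 (500001 to 600000) and 1.59 in bin 24 (2300001 to 2400000), and replicate 3 had its highest means, 1.70 and 1.68, in bins 6 and 7. Bin 24 was covered over 51.2% in the combined list, among the sparsest, and its mean combined score of 1.51 was among the highest. Bin 20 (1900001 to 2000000) had the lowest mean in both, at 0.644 in replicate 2 and 0.741 in replicate 3. In that bin replicate 1 covered 5.28%, against 49.9% in replicate 2 and 37.1% in replicate 3.

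The part of the enrichment that replicate 1 recovered followed the score in the other libraries. Its coverage divided by the mean of replicates 2 and 3 ranged from 0.121 in bin 20 to 0.792, with a median of 0.502. Across the 26 bins this ratio went with the mean score of replicate 2 (Pearson's r 0.81, Spearman's rho 0.78) and of replicate 3 (r 0.84, rho 0.82). It went little with the coverage of replicate 2 (r 0.18, rho 0.21), but that coverage is part of its divisor, which can lower this correlation by construction. Undivided, replicate 1 coverage went with the score of replicate 2 (r 0.75, rho 0.74) and about as well with its coverage (r 0.68, rho 0.72). Bins 10 and 11 (900001 to 1100000) are examples of a low ratio: replicate 2 covered 68.6% and 66.1% of them, with mean scores of 0.827 and 0.825, and replicate 1 covered 12.7% and 13.9%. These are descriptions across neighbouring bins that share libraries, so no p is given. Between lists, the coverage of the 26 bins was most alike for replicates 2 and 3 (r 0.96, rho 0.96), followed by replicates 1 and 3 (r 0.80, rho 0.80) and replicates 1 and 2 (r 0.68, rho 0.72).

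**Figure D2:**
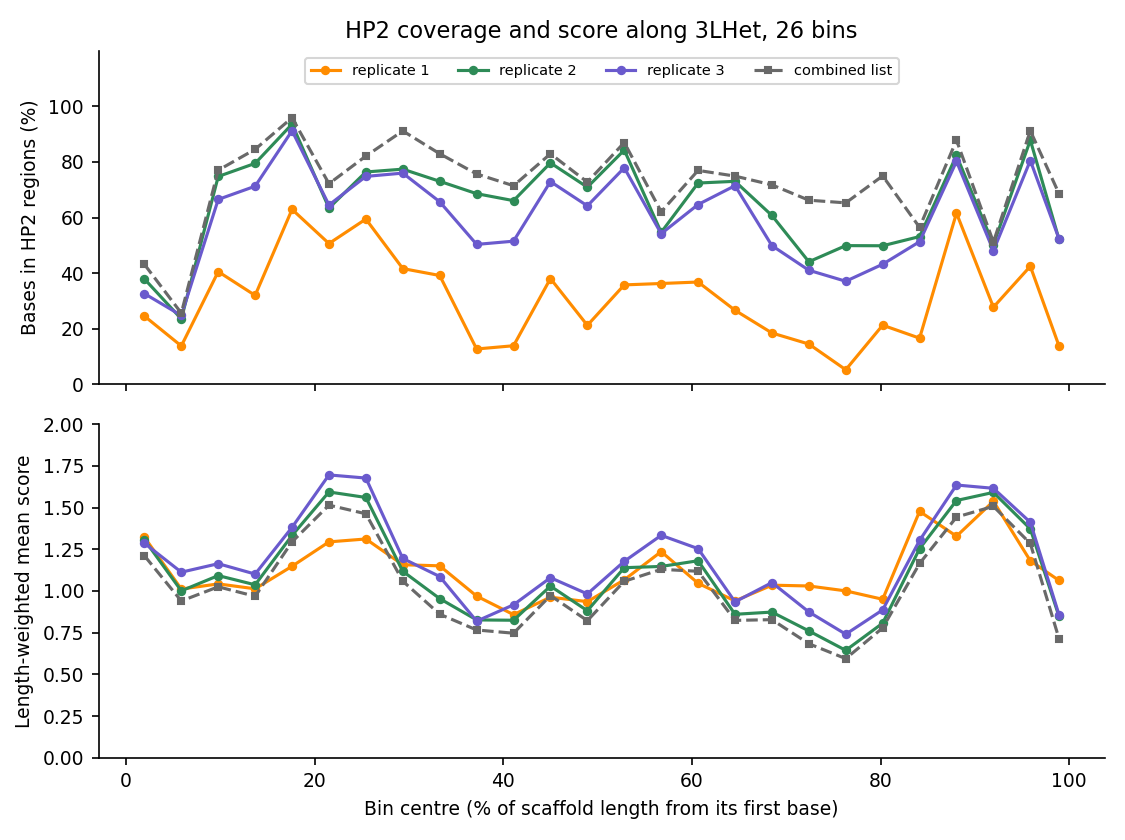
Coverage in percent (upper panel) and length-weighted mean region score (lower panel) in 26 bins along 3LHet, by bin centre in percent of scaffold length; colours are replicates and the dashed line is the combined list. Replicate 1 is lowest in coverage in all 26 bins and drops most, to 5.28%, where the scores of replicates 2 and 3 are lowest; scores are to be read along a line, not between lines.

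Regions on 3LHet were long. In the combined list their median length was 4183 bp on 3LHet and 1833 bp elsewhere, and the interquartile range on 3LHet was 2142 to 8155 bp. The medians on 3LHet were 2023, 4021 and 3436.5 bp in replicates 1, 2 and 3, and those of all other regions 1908, 2029 and 2000.5 bp. The difference was 115, 1992 and 1436 bp (mean 1181 ± 964, SD, n = 3; exact sign-flip permutation test, two-sided, p = 0.25, the smallest possible), with a mean of 1714 bp without replicate 1. Against the other Het scaffolds it was 123.5, 1152 and 1124.5 bp.

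Regions over 10 kb carried much of the covered sequence. The combined list had 55 on 3LHet, 21.9% of its 251 regions, and 5.83% of all combined regions were that long. These 55 held 61.0% of the covered bases of the scaffold. Replicate 1 had 8 such regions on 3LHet (2.97%, against 2.53% over its whole list), replicate 2 had 48 (19.4%, against 8.11%) and replicate 3 had 40 (14.7%, against 6.90%). The excess of long regions was therefore a feature of replicates 2 and 3 and of the combined list, and in replicate 1 the share was near that of the whole list. It was not particular to 3LHet, though larger there. On the other Het scaffolds the share was 11.7% in the combined list and 2.63%, 10.0% and 8.08% in replicates 1, 2 and 3. Such regions held 45.2% of the combined covered bases of those scaffolds.

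**Figure D3:**
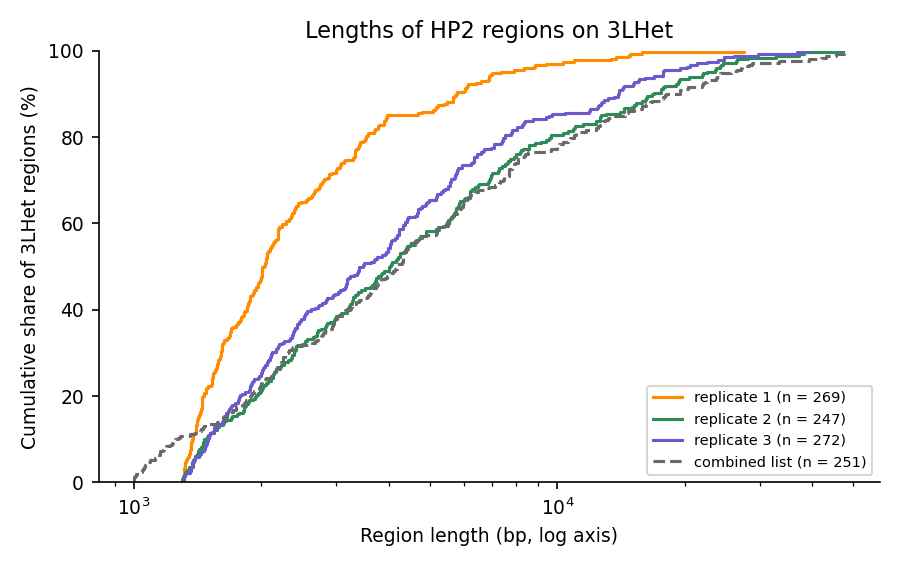
Cumulative share of 3LHet regions (percent) by length (bp, log axis) in the 3 replicate lists and the combined list (dashed). The replicate 1 curve lies to the left, with a median of 2023 bp, while the combined curve, with a median of 4183 bp, starts at the shortest lengths, near 1001 bp.

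The 10 longest combined regions spanned 382 kb together, 20.5% of the covered bases, and each was found in all 3 replicate lists by an overlap of at least 1 bp. The first ran from 2382686 to 2430244 (47559 bp, score 1.98) and was covered over 77.6% by 6 regions of replicate 1, over 99.4% by 1 region of replicate 2 and over 99.4% by 2 regions of replicate 3. The next, from 387212 to 434678 (47467 bp, score 1.16), was covered over 56.6%, 98.8% and 99.3%. The third, from 450934 to 496508 (45575 bp, score 1.44), was broken into 8 regions in replicate 1, the most for any combined region, that covered 57.1% of it. It lies within the densest bin.

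The remaining long regions differed in strength and in how much of them replicate 1 held. The region from 576978 to 616260 (39283 bp) had the highest score of the 10, 2.07, and replicate 1 covered 80.7% of it. The region from 1391306 to 1433198 (41893 bp, score 1.49) was covered over 75.6% by replicate 1, and that from 2285270 to 2328260 (42991 bp, score 1.24) over 33.9%. At the low end, the region from 904434 to 933176 (28743 bp) scored 0.782, and 12.5% of it was covered in replicate 1, against 99.1% in replicate 2. A score of 1.10 belonged to the region from 734850 to 768138. The last 2 of the 10 scored 0.885 (from 1129170 to 1157442) and 0.995 (from 1171834 to 1199062). Over the 10 regions, replicates 1, 2 and 3 covered a median share of 55.8%, 98.3% and 94.7%, in 54, 23 and 35 pieces.

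Gaps between neighbouring combined regions were short, with a median of 969 bp, and 126 of the 250 were under 1 kb. When regions less than 1 kb apart were joined, the 251 regions formed 125 blocks with a median of 8257 bp. The longest block, from 670748 to 777866, measured 107 kb and held 9 combined regions; replicates 1, 2 and 3 covered 53.3%, 90.7% and 88.1% of it. The next were an 81.7 kb block from 2246562 to 2328260 and a 72.3 kb block from 368388 to 440694. In the single lists the longest blocks were shorter, at 29.02 kb in replicate 1, 66.5 kb in replicate 2 and 53.0 kb in replicate 3.

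A few stretches of the scaffold were left out by all lists or nearly all. The longest without a combined region ran from 84669 to 168477 (83809 bp), and replicates 1, 2 and 3 covered 1.58%, 0% and 3.21% of it. The second, from 2328261 to 2375481 (47221 bp), began directly after the 42991 bp region that ends at 2328260, and at most 0.614% of it was covered in any replicate. The third, from 1452981 to 1482795 (29815 bp), was covered over 4.80%, 0% and 1.59%. The next 2, from 2160959 to 2186909 (25951 bp) and from 34957 to 53423 (18467 bp), held no region in any list. Read placement was not part of the files used here, so an uncovered stretch cannot be told apart from sequence in which reads could not be placed.

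Base by base, regions of all 3 replicates overlapped on 26.2% of 3LHet. A further 32.8% of the scaffold belonged to regions of 2 replicates, 12.9% to those of 1 replicate and 28.1% to no replicate region. Most of what replicate 1 covered was covered by both others: 83.4% of its bases were, and 9.32% were in neither. The other way, 46.2% of the 1449 kb shared by replicates 2 and 3 lay in replicate 1 regions. The part found in replicates 2 and 3 but not in replicate 1 was 30.5% of the scaffold, the largest of the 8 possible combinations. The Jaccard index (shared bases over the bases of either list) was 0.822 between replicates 2 and 3. Replicate 1 reached 0.416 with replicate 3 and 0.401 with replicate 2. In the rest of the genome these were 0.674, 0.390 and 0.379, and on the other Het scaffolds 0.702, 0.388 and 0.354.

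By number of regions, replicates shared more on 3LHet than over whole lists when 1 bp of overlap was enough. Replicate 1 had 269 regions, and 92.9% of them overlapped a replicate 2 region (78.5% over its whole list), while 88.5% overlapped one of replicate 3 (75.0%). For the 247 regions of replicate 2 the shares were 61.1% with replicate 1 (42.4%) and 87.0% with replicate 3 (73.0%). Among the 272 of replicate 3 they were 59.9% with replicate 1 (42.2%) and 95.2% with replicate 2 (78.6%). On the other Het scaffolds these shares were, in the order given, 85.9%, 82.0%, 47.4%, 77.8%, 50.4% and 89.0%. Each lay between the share on 3LHet and that over the whole list. Longer regions and denser coverage meet the rule of 1 bp more easily.

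A rule of at least 50% overlap of both regions changed this order for the directions with replicate 1. Of the replicate 1 regions, 17.1% then had a partner in replicate 2 on 3LHet, against 28.2% elsewhere, and 23.4% had one in replicate 3, against 31.0%. On the other Het scaffolds these shares were 17.9% and 25.4%, near those of 3LHet. The reverse directions gave 18.6% on 3LHet and 21.7% elsewhere for replicate 2, and 23.2% and 23.6% for replicate 3. They gave 15.4% and 21.8% on the other Het scaffolds for replicates 2 and 3. Replicates 2 and 3 still shared 68.8% and 62.5% of their 3LHet regions, against 60.7% and 60.0% elsewhere. The other Het scaffolds gave 55.0% and 54.9%. Splitting lay beside this: 59 of the 247 replicate 2 regions held 2 or more replicate 1 regions, up to 6 in the region from 228566 to 252922, and 96 held none.

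Replicate 2 and 3 regions that replicate 1 lacked had lower medians of length and score. The 151 replicate 2 regions with a replicate 1 partner had a median length of 6208 bp and a median score of 0.949, against 2194.5 bp and 0.692 for the 96 without. In replicate 3 the 163 with a partner had medians of 4909 bp and 1.03, and the 109 without had 2199 bp and 0.779. In contrast, the 13 replicate 3 regions absent from replicate 2 were short but scored high, with medians of 1651 bp and 1.53, against 3844 bp and 0.928 for the other 259.

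Edges were placed most alike in replicates 2 and 3. Among the 170 pairs with 50% overlap both ways, starts differed by a median of 237.5 bp and ends by 343 bp, and in 66 pairs both edges lay within 500 bp. For the 63 pairs of replicates 1 and 3 the medians were 433 and 584 bp, and for the 46 pairs of replicates 1 and 2 they were 632 and 600 bp. Scores of these pairs went together, with Spearman's rho 0.89 (r 0.92) between replicates 2 and 3. Replicate 1 gave rho 0.75 (r 0.69) with replicate 3 and 0.84 (r 0.83) with replicate 2. With 1 bp of overlap rho was 0.81, 0.50 and 0.42 for the same pairs in that order. These correlations run across regions of the same libraries, which are not independent, and carry no p.

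**Figure D4:**
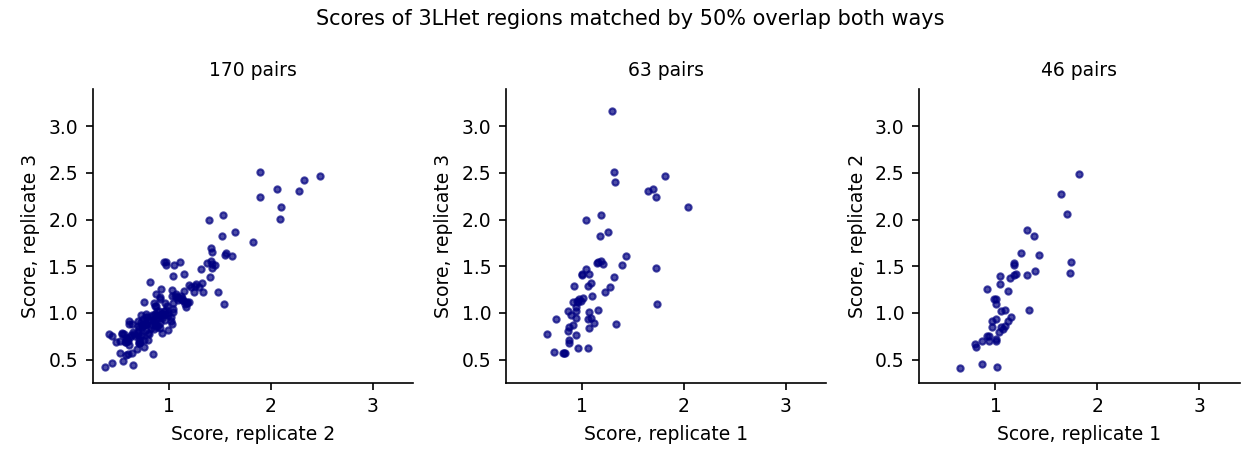
Scores of 3LHet regions matched by at least 50% overlap both ways, each point 1 pair: replicates 2 and 3 (170 pairs), 1 and 3 (63) and 1 and 2 (46). Points of replicates 2 and 3 follow a narrow band, and scores of replicate 1 span a smaller range than those of its partners.

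Scores on 3LHet were compared with those of all other regions in the same list. The median was 0.996 on 3LHet and 0.990 elsewhere in replicate 1, 0.855 and 0.679 in replicate 2, and 0.936 and 0.767 in replicate 3. The mean difference was 0.117 ± 0.096 (SD, n = 3; exact sign-flip permutation test, two-sided, p = 0.25, the smallest possible), and it was 0.173 without replicate 1. Among regions of at least 2000 bp the mean difference was 0.037 (exact sign-flip permutation test, p = 0.50). Against the other Het scaffolds, with no length limit, it was smaller, at 0.015, 0.092 and 0.064 in replicates 1, 2 and 3 (mean 0.057). In the combined list the median was 0.812 on 3LHet and 0.548 elsewhere. There 213 of the 251 regions scored at or above the median of the whole list. The share was lower in each replicate list, set against its own median. It was 140 of 269 regions in replicate 1, 183 of 247 in replicate 2 and 190 of 272 in replicate 3.

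The very strongest regions were present in a share close to that of the lists as a whole. Among the 100 highest scores of the combined list were 7 regions of 3LHet, 2.79% of its members, and 1.93% of all combined regions are among those 100. In replicates 1, 2 and 3 there were 9 (3.35%, against 4.06% of the list, 101 regions with a tie), 10 (4.05%, against 3.19%) and 12 (4.41%, against 3.13%).

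The 10 highest scores on 3LHet in the combined list fell into short regions that the replicates did not share and long ones that they did. The highest, 3.59, belonged to the region from 1542312 to 1543312, which was 1001 bp long, the shortest length in that list, and was in no replicate list. It ranked 4 in the whole combined list. The next 2, from 812966 to 813966 (score 2.95, 1001 bp) and from 1375174 to 1376610 (score 2.87, 1437 bp), were in 1 replicate list each. Ranked 5, 6, 7 and 10 on the scaffold were the regions from 2049796 to 2051616 (2.37), from 616600 to 618620 (2.31), from 1706734 to 1707796 (2.20) and from 732392 to 734260 (2.06), which were all under 3 kb and in at most 1 replicate list.

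The other 3 of these 10 were in all 3 lists. The region from 2188812 to 2203216 (14405 bp) scored 2.40 and was covered over 92.7%, 99.7% and 99.2% in replicates 1, 2 and 3. Its neighbour from 2208380 to 2216058 (7679 bp) scored 2.18 and was covered over 95.0%, 94.9% and 99.2%. In each list a single region matched each of them, so replicate 1 did not split them. The third was the 39283 bp region from 576978 to 616260, already described, with 2.07. It holds the strongest 3LHet region of replicate 1, from 600503 to 607338, whose score of 2.45 ranked 2 in that list.

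The single lists put other members first. In replicate 1 the next were the regions from 2236224 to 2244138 (2.04) and from 2189757 to 2203108 (1.82). Replicate 2 was led by the 1313 bp region from 1375292 to 1376604 (2.65), without a partner in the other replicates, then by those from 2188812 to 2203178 (2.49) and from 598253 to 616037 (2.33). Replicate 3 was led by the 1362 bp region from 366603 to 367964 (3.16), then by those from 499155 to 500862 (2.75, in neither other replicate) and from 660300 to 666656 (2.51, in both).

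Of the 251 combined regions, 119 (47.4%, 95% Clopper-Pearson interval 41.1% to 53.8%, counting error only) were found in all 3 replicate lists, against 21.0% of all 5179 combined regions. Another 77 occurred in 2 lists and 29 in 1 list, while 26 (10.4%) had no partner, against 33.5% of the whole combined list. On the other Het scaffolds 32.0% were in all 3 and 18.6% in none. The 119 shared regions held 78.8% of the covered bases of the scaffold, and the 26 regions in no replicate list held 1.89%. The combined list is taken, from its name, to come from the same libraries, and sharing with it is then partly built in. The interval treats regions as independent, which regions of the same libraries are not, and leaves out the spread between replicates.

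Presence in more lists went with length. Median lengths were 1205, 1619, 3237 and 7885 bp for regions in 0, 1, 2 and 3 lists. Over the whole combined list they were 1203, 1708, 2157 and 5097 bp. Of the 55 regions over 10 kb on 3LHet, 52 were in all 3 lists, and of the 58 under 2 kb 1 was. These values use the rule of 1 bp, which a longer region meets more easily, so the link with length is partly built in. Lengths below 1301 bp, the shortest 3LHet region of any replicate list, occurred for 27 combined regions, 16 of them in no list. Median scores did not follow the same order, at 0.736, 0.831, 0.634 and 0.888. With a 50% overlap both ways, 27 of the 251 regions (10.8%) were found in all 3, against 8.73% of the whole list, and their median score was 1.31. By that rule median lengths on 3LHet were 1593, 3793, 5655 and 5977 bp for 0, 1, 2 and 3 lists. Without replicate 1, 71.7% of the regions were in both remaining lists by 1 bp of overlap. The same share over the whole combined list was not worked out, so this value cannot be read as particular to 3LHet.

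**Figure D5:**
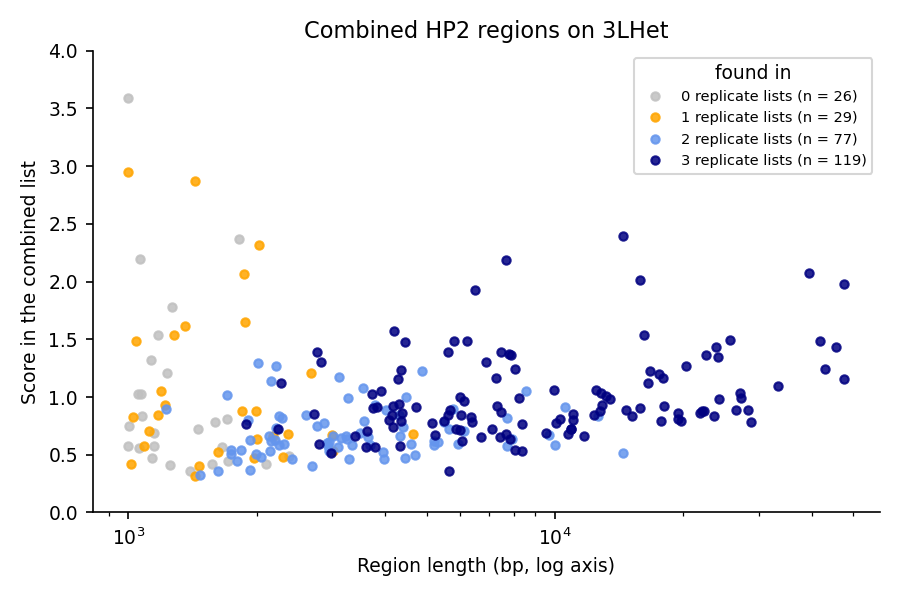
Score against length (bp, log axis) for the 251 combined regions on 3LHet, coloured by the number of replicate lists that hold them. The highest scores, up to 3.59, sit at lengths of 1 to 2 kb in 0 or 1 lists. Regions over 10 kb are almost all in 3 lists (52 of 55) by the rule of 1 bp overlap, which long regions meet more easily.

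The 5 strongest combined regions in no replicate list included 3 already named, at 3.59, 2.37 and 2.20, followed by those from 2057634 to 2058902 (1.78) and from 1769366 to 1770540 (1.54). Of these 26 regions, 13 carried a score that recurred exactly (to 9 decimals) in another region of the combined list, as did 5 of the 119 in all 3 lists. Such scores were common in general: 1850 of all 5179 combined regions had one (35.7%), and 47 of the 251 on 3LHet (18.7%). The combined list in turn held 97.03% of the replicate 1 regions of 3LHet (87.7% over the whole list), all 247 of replicate 2 (99.9%) and 98.5% of replicate 3 (92.0%). Among the 4 replicate 3 regions that it lacked, the strongest was the one from 366603 to 367964 that led that replicate. Among the 8 that it lacked from replicate 1, the strongest ran from 1481065 to 1482494 (1.20).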

How the data were processed

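Enriched-region lists of 3 HP2 immunoprecipitation libraries and 1 combined list were analysed. Bowtie 0.12.7 is listed in the submitters' processing notes, and per the file headers the coordinates follow FlyBase release 5. Neither the caller and threshold behind the regions nor the making of the combined list is stated by the labels or headers. The authors deposited a score per region whose scale is not stated per the file headers, so scores were compared within a list. Groups and replicate numbers came from the labels.

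Scaffold lengths came from the headers, and region ends past them (3, 3, 2 and 3 in replicates 1 to 3 and the combined list, none on 3LHet) were set to that length. Coverage means the share of bases, in percent, that regions span. Regions were called shared at 1 bp of overlap, with 50% both ways as an alternative. Values of 3LHet were set against those of other sequence within each library and tested by exact sign-flip permutation over 3 replicates at a threshold of 0.05. Simulated lists (20 runs) were used to test the overlap functions, which returned the planted values.

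Named regions are, on 3LHet, the 10 highest scores, the 10 longest, the 5 longest uncovered stretches, the 5 strongest in no replicate list, the 3 strongest of each replicate and the strongest per replicate outside the combined list; blocks and bins are named as extremes. Members and rules were chosen with earlier results of these data known. The gene table at hand follows release 6, so regions were not placed relative to genes, and no release 5 sequence was used here. The tools were scipy 1.17.1, pandas 2.3.3 and numpy 2.4.6 under Python 3.11.15, with plots by matplotlib 3.10.9. Depth is unknown, so errors are the spread between replicates.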

Additional observations from a re-analysis of the deposited data

How the results depend on the processing

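No paired analysis was possible because the input libraries, which share replicate numbers with the immunoprecipitation libraries, had no values of their own here. Of 76 alternatives over 14 results, 66 kept the direction or stayed within the spread; 9 of these results were tested, and none could reach 0.05 with 3 replicates, so their p-values say nothing about stability. By construction, a limit at the median score of each list left 171 regions on average. The combined list gave a coverage of 72.9% and turned the difference from chromosome 4 to 2.16 points. Leaving out a replicate gave -2.73 to 0.056 points there, reversed without replicate 1, and -0.28 to 3.62 points against the last 2 Mb of 3L, reversed without replicate 2. The share of combined regions in all lists was 10.8% with 50% overlap both ways, 54.0% for combined regions at or above the list median, and 49.0% to 71.7% without a replicate. Pairwise sharing averaged 80.8% over 6 directions and 35.6% with 50% both ways. The Jaccard index averaged 0.546 and ranged from 0.401 to 0.822 without a replicate. The cause was not tested beyond what each alternative changes by construction. Comparisons with chromosome 4, the last 2 Mb of 3L and the other Het regions alone were chosen after seeing the data.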
